A study of Mus musculus with 2 samples.

Results

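EMT6 tumor cells with RNA of the G2 and M phases were studied in single-cell RNA sequencing of 2 libraries. A cell was taken as a tumor cell if it had at least 200 genes, under 20% mitochondrial UMIs, at least 2000 UMIs and at least 2 UMIs of the keratins Krt8 and Krt18, with under 0.02% of its UMIs from the leukocyte genes Tyrobp and Ptprc and under 0.02% from Col5a2, a collagen gene. A UMI, or unique molecular identifier, marks 1 captured transcript. Among these cells, the G2/M tumor cells were chosen by Cenpf, Ube2c, Cdc20, Cenpa and Prc1, which together had to make up at least 0.05% of the UMIs of a cell. This gave 5682 G2/M tumor cells, out of 13598 tumor cells and 23657 cells in all.

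EMT6 is a mouse mammary carcinoma line, used here as a model of triple-negative breast cancer and grown under the skin of BALB/c mice with an intact immune system (the study's methods give females of 5 to 6 weeks, but where they do so they call the mice BALB/c (nude)). In both groups the mice received LLY-283, an inhibitor of the arginine methyltransferase PRMT5, in cycles of 3 treated and 4 untreated days (50 mg/kg), and Olaparib, a PARP inhibitor, daily (50 mg/kg). The Olaparib + LLY-283 group received nothing else, and the Combo group was also given 200 µg of an antibody to PD-1 every 3 days. Tumors of 3 mice without necrosis or ulcers were pooled into 1 library per group, and no library of untreated tumors was analysed. The treatment, the pool of mice and the library therefore cannot be told apart, and differences are given below without a test, with intervals that cover counting error only.

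A dividing cell copies its DNA in S phase, prepares for division in G2 and separates its chromosomes in M phase. Entry into mitosis is driven by the kinase CDK1 with cyclins A and B. Exit follows when the anaphase promoting complex, with CDC20 and the enzymes UBE2C and UBE2S, marks cyclin B and securin for destruction. Transcripts of these factors are made mainly from late S phase until mitosis, under a control that includes the DREAM complex, B-MYB and FOXM1. Promoters of such genes often carry a cell cycle homology region (CHR) and CCAAT boxes. Olaparib and PRMT5 inhibition both burden DNA repair, and cells with unrepaired DNA can be held in G2 by a checkpoint, so that G2 and mitosis are the phases in which such damage meets cell division.

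The promoters of the genes that chose the cells are shown because they carry the sequence elements through which this program is read. Each sequence is RefSeq sequence of GRCm38.p6, written 5′ to 3′ on the strand of the gene, from 200 bases before an annotated start to 30 bases after it. Capitals mark the CHR words TTTGAA or TTCGAA and the word CCAAT, on either strand (TTCAAA and ATTGG are the same words on the other strand). Ccnb2 and Hmmr are added as G2/M genes outside the rule with both elements, and Ccnb1 as one without a CHR word in this window.
Cenpf, chr1:189688057-189688286, minus strand: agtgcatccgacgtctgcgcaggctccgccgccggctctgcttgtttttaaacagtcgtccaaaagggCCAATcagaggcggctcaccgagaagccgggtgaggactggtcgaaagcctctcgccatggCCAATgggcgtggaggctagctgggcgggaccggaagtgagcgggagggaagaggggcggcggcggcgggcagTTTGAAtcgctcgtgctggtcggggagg
Ube2c, chr2:164769729-164769958, plus strand: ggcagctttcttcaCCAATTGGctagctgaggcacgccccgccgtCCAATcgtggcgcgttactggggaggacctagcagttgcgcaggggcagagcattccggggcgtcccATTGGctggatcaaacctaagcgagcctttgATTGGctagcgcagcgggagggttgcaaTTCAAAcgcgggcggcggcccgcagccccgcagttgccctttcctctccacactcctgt
Cdc20, chr4:118437314-118437543, minus strand: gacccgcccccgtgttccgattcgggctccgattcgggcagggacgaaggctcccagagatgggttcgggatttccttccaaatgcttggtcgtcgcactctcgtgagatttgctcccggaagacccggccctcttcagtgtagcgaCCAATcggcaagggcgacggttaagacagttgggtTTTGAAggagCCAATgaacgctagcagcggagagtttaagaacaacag
Cenpa, chr5:30666686-30666915, plus strand: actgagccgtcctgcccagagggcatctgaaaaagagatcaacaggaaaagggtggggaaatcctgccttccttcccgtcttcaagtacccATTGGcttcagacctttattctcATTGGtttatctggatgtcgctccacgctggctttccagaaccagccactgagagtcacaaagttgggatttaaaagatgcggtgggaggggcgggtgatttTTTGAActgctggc
Prc1, chr7:80294251-80294480, plus strand: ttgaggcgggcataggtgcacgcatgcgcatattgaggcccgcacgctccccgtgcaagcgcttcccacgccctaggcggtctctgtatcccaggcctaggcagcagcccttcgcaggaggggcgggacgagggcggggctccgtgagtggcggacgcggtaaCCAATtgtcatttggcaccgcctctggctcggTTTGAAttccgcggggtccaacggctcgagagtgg
Ccnb2, chr9:70421525-70421754, minus strand: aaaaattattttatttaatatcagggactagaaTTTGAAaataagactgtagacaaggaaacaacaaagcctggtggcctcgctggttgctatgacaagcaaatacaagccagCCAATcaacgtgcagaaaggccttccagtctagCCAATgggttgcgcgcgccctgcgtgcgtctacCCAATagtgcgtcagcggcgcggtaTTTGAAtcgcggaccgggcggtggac
Hmmr, chr11:40733408-40733637, minus strand: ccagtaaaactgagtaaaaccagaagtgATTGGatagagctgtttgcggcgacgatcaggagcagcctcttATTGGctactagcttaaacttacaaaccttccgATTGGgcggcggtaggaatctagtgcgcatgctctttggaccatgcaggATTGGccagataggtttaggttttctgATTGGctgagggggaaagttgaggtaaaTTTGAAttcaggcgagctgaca
Ccnb1, chr13:100786457-100786686, minus strand: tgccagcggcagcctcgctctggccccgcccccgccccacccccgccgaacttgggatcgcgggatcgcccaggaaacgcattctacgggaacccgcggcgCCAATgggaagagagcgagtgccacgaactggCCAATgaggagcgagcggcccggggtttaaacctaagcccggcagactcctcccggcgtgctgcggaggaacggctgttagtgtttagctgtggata

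In windows of 300 bases (250 before the start and 50 after it), a CHR word was present for 5 of the 5 genes of the rule. It began 29 bases before the start in Ube2c, 18 before it in Cdc20 and 5 before it in Prc1, and just after it in Cenpf and Cenpa. A list of 110 further genes of G2 and M phase, sorted by role and without the 5 genes of the rule, was used throughout, and 86 of them matched the promoter table. A CHR word was present for 57 of these (66.3%), against 21.7% of all 27025 genes and 5 of 31 S-phase genes (16.1%), and 19.2% of all 32851 windows held one. Within 50 bases of the start on either side, the shares were 53.5% of the G2/M genes, 6.45% of the S-phase genes and 6.12% of all genes. A CCAAT box was present for 73.3% of the G2/M genes, 54.8% of the S-phase genes and 41.1% of all genes, and at least 2 were present for 46.5%, 35.5% and 13.3%. A match describes the letters of a window, and binding was not measured.

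The 2 libraries differed in depth, which bears on every share of cells. The Olaparib + LLY-283 library held 16115 cells with 147214934 UMIs, and the Combo library 7542 cells with 162522700 UMIs. Tumor cells numbered 10771 and 2827, with a median of 9962 UMIs per tumor cell in Olaparib + LLY-283 and 48079 in Combo. The libraries shared 39 cell barcodes, 3 of them among G2/M tumor cells of both. The tumor cells almost lacked Epcam, an epithelial surface protein, at 3.23 CPM (UMIs of a gene scaled to a fixed total of UMIs per cell set) in the G2/M cells of Olaparib + LLY-283 and 2.9 CPM in those of Combo. Vim, the intermediate filament of mesenchymal cells, stood at 6290 and 5919 CPM.

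The G2/M cells made up 42.6% of the tumor cells of Olaparib + LLY-283 (4592 of 10771, exact Clopper-Pearson 95% interval 41.7 to 43.6%) and 38.6% of those of Combo (1090 of 2827, 36.8 to 40.4%). These intervals cover counting error over the cells of 1 library per group, so they do not compare the treatments. The share also depended on depth. In Olaparib + LLY-283 it was 29.3% in cells of 2000 to under 5000 UMIs, 32.6% up to 10000, 48.2% up to 20000, 69.5% up to 50000 and 90% above that. In Combo the same bands held 44.6%, 46.1%, 31.1%, 23.2% and 53.3%, so that the order of the libraries was the opposite in the 2 shallowest bands, which held 132 Combo cells. The intervals, which cover counting error only, were 26.8 to 31.9% and 31.3 to 58.5% in the first of these bands. In the second they were 31.2 to 34.1% and 34.5 to 57.9%. With each cell thinned to 5000 UMIs before the choice, the shares were 43.7% and 36.8%, with 1283 and 56 shallower cells left out. With 10000 UMIs they were 55.8% and 39.3%, with 5409 and 132 cells left out. Apart from these depth bands, 17 of 17 settings of the cut, the genes, the filters and the thinning gave Olaparib + LLY-283 the higher share, by 0.96 to 16.4 percentage points. The settings include the reported one and draw on the same cells, so they are not independent of each other.

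**Figure D1:**
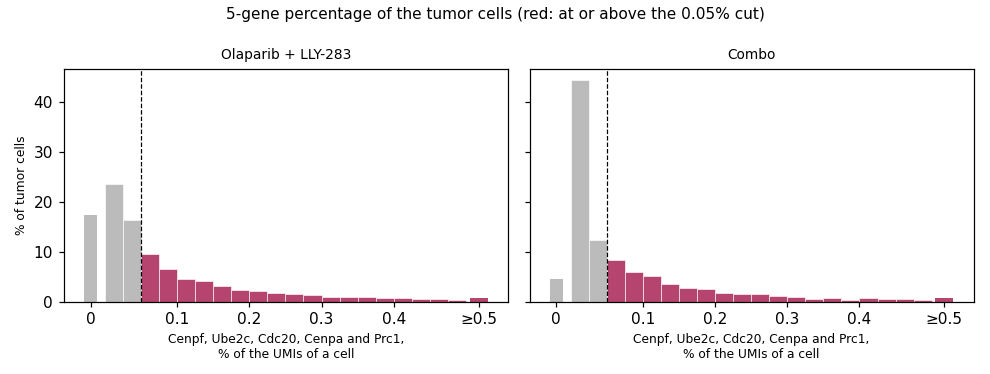
Percentage of the UMIs of a cell that came from Cenpf, Ube2c, Cdc20, Cenpa and Prc1 (x axis, bins of 0.025, with cells at 0 in a bar of their own and cells at 0.5 or more in the last) against the percentage of tumor cells (y axis), per library. Red bars are the G2/M cells, and the bars fall smoothly through the dashed cut at 0.05%, with no gap between the sets.

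The cut ran through a continuous distribution. The 5 genes made up a median of 0.13% of the UMIs of a G2/M cell in Olaparib + LLY-283 and 0.125% in Combo, with maxima of 0.725% and 0.698%. A median of 16 and 69 UMIs stood behind these percentages, and 213 and 8 G2/M cells rested on 3 or fewer UMIs of the 5 genes. In Olaparib + LLY-283, the 474 cells just inside the cut (0.05 to 0.06%) had 9197 CPM of the G2/M list and the 556 just outside it (0.04 to 0.05%) had 8110 CPM. In Combo the values were 10360 CPM in 112 cells inside and 9349 CPM in 114 outside. Neutrophils, which do not divide, were counted as cells that should lack the 5 genes. They were taken as cells with at least 1% of UMIs from S100a8 and S100a9 and none from Krt8 or Krt18. In all, 39 of 370 neutrophils of Combo with at least 2000 UMIs passed the same cut (10.5%, 7.6 to 14.1%, median 2371.5 UMIs), as did 2 of 12 in Olaparib + LLY-283. The 5 genes stood at 229 CPM in the neutrophils of Combo and 330 CPM (11 UMIs, exact Poisson interval 165 to 591 CPM) in the 12 of the other library, against 162 and 185 CPM in the other tumor cells, which the rule made low, and 1738 and 1716 CPM in the G2/M cells.

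The values of the 5 genes, by which the cells were chosen, are a description. Cenpf, a kinetochore protein that accumulates in G2, stood at 305 CPM in the G2/M cells and 21.7 CPM in the other tumor cells of Olaparib + LLY-283, and at 334 and 19.3 CPM in Combo. Ube2c, the ubiquitin-conjugating enzyme of the anaphase promoting complex, stood at 579 against 59.9 CPM and at 547 against 50.8 CPM. Cdc20, the activator of that complex, stood at 187 against 22.5 CPM and at 213 against 19.9 CPM. Cenpa, the centromeric histone H3, had the smallest ratio of the 5, at 397 against 56.7 CPM and 395 against 49.1 CPM. Prc1, which bundles the microtubules of the central spindle, stood at 247 against 24.6 CPM and 250 against 23 CPM. UMIs of all 5 genes were found in 48.2% of the G2/M cells of Olaparib + LLY-283 and 81.8% of those of Combo. After thinning to an equal 2000 UMIs, these shares were 3.72% and 3.94%.

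Outside the rule, transcripts of most genes of the division program were higher in the G2/M cells. A gene is called higher or lower here if its CPM differed by at least 1.5-fold, among genes with at least 200 UMIs over the cells compared. All ratios are log2 ratios of CPM with 0.5 UMI added. Of 11245 genes in Olaparib + LLY-283, 476 (4.23%) were higher in the G2/M cells and 160 (1.42%) were lower. Of 11487 genes in Combo, 597 (5.2%) were higher and 461 (4.01%) lower. Over the 11156 genes that could be compared in both libraries, 437 were higher in both and 121 lower in both. None, 0, was higher in one and lower in the other. These counts include the 5 genes of the rule, which were higher in both libraries because they chose the cells. Of the 110 genes of the G2/M list, 105 were higher in Olaparib + LLY-283 and 106 in Combo, with median log2 ratios of 2.02 and 2.32, against 0.02 and 0.03 over all genes. The remaining ones were Anapc11, Cdc27 and Cdc16 (subunits of the anaphase promoting complex), Kif13b and, in Olaparib + LLY-283, the chromatin protein Hmgb1 (0.58).

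**Figure D2:**
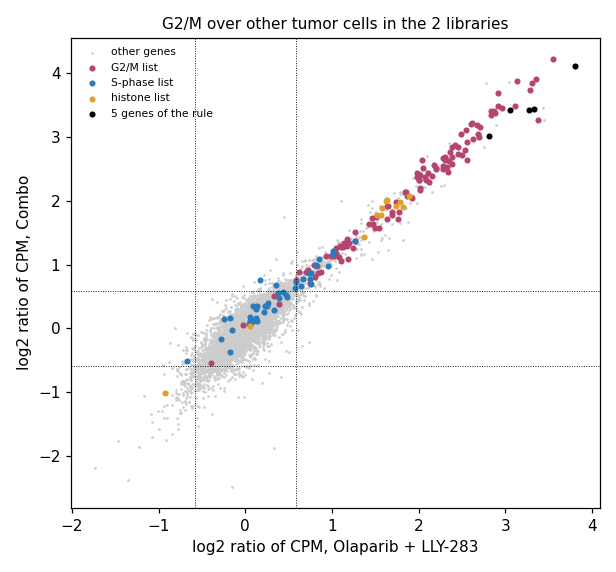
Log2 ratio of CPM, G2/M over other tumor cells, in Olaparib + LLY-283 (x axis) and Combo (y axis) for 11156 genes, with the G2/M, S-phase and histone lists in color, the 5 genes of the rule in black and dotted lines at 1.5-fold. The G2/M list (median 2.02 and 2.32) lies along the diagonal at the upper right, and the S-phase list (median 0.26 and 0.39) near the bulk of the genes.

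Among kinases and cyclins that start mitosis, 17 of 17 genes were higher in both libraries. Ccnb1, cyclin B1, stood at 107 CPM in the G2/M cells and 14.5 CPM in the other tumor cells of Olaparib + LLY-283, and at 102 and 9.8 CPM in Combo (log2 ratios 2.88 and 3.37). Plk1, a kinase of mitotic entry and spindle assembly, had log2 ratios of 2.92 and 3.48, and Aurka, the centrosomal Aurora kinase, 3.11 and 3.48. Cdc25c, the phosphatase that activates CDK1, had 2.84 and 3.35. Cdk1 itself had a smaller ratio (1.69 and 1.77), as did its binding partners Cks1b (1.2 and 1.33) and Cks2 (1.46 and 1.73). Ccna2, the cyclin of S and G2, lay between them (2.31 and 2.64).

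The machinery that holds and moves chromosomes was higher as a group. Of 18 further centromere and kinetochore genes, 18 were higher in both libraries, with Cenpe, a kinetochore motor, at 3.29 and 3.73 and Birc5 (survivin, of the chromosomal passenger complex) at 2.28 and 2.67. The 12 kinesin motors had median ratios of 2.52 and 2.88, the largest of the 9 roles of the list. Kif2c, which depolymerizes microtubules at centromeres, had 3.31 and 3.84, and Kif11, which drives spindle poles apart, 2.63 and 2.97. Of 17 spindle and microtubule genes, 17 were higher. They ranged from Nusap1, a spindle assembly protein, at 3.55 and 4.22 to tubulins that all cells use, with Tubb5 at 0.8 and 0.8. Of 6 spindle checkpoint genes, 6 were higher, with Knl1 at 2.7 and 3 and Bub1b at 2.61 and 3.2.

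Genes of chromosome condensation had a median of 1.48 and 1.61. Top2a, topoisomerase II, stood at 311 against 71.6 CPM in Olaparib + LLY-283 and 382 against 77.5 CPM in Combo, and Mki67, the proliferation antigen that coats mitotic chromosomes, at 201 against 31.6 CPM and 244 against 26.8 CPM. The subunits of condensin I, Ncapd2 (2.02 and 2.17), Ncapg (2.01 and 2.32) and Ncaph (1.87 and 2.08), had larger ratios than those of condensin II on the list, Ncapg2 (0.93 and 1.14) and Ncapd3 (0.83 and 0.97). Smc2 (1.74 and 1.98) and Smc4 (1.5 and 1.58), which both complexes share, lay between them. Of 11 cytokinesis genes, 10 were higher, with Cep55, which recruits the abscission machinery, at 2.69 and 3.05 and Ect2, which activates RhoA at the cleavage furrow, at 2.16 and 2.39. Of 8 genes of the anaphase promoting complex, its partners and its substrates, 5 were higher. Espl1 (separase, 2.31 and 2.68) and Pttg1 (securin, 1.85 and 2.14) had larger ratios than the core subunits Anapc11 (0.39 and 0.38), Cdc27 (0.33 and 0.5) and Cdc16 (-0.03 and 0.05). The factors that drive the program were also higher in 5 of 5 cases, with Foxm1 at 1.84 and 2.13 and Mybl2 at 0.87 and 0.88.

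Genes outside the rule with at least 500 UMIs in each library were ranked by the smaller of their 2 ratios, and the first 12 were Nusap1, Sapcd2, Aspm, Kif2c, Cenpe, Depdc1a, Fam83d, Hmmr, Aurka, Arhgap19, Kif14 and Nek2. Sapcd2, Depdc1a and Arhgap19 were not on any list used here. Sapcd2, a regulator of spindle orientation, had 20.9 CPM in the G2/M cells and 1.94 CPM in the other tumor cells of Olaparib + LLY-283, and 17.4 and 1.58 CPM in Combo. Arhgap19, a RhoA inactivator of mitosis, had 14.3 against 1.73 CPM and 18.8 against 1.28 CPM. Hmmr, a spindle and hyaluronan-binding protein, had 129 against 14.6 CPM and 165 against 11.3 CPM.

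The lowest genes, ranked in the same way, were Tcp11l2, Aspn, Pgf, Notum, Ung, Dock4, Rgs2, Itgb8, Hist1h2bc, Tec, Scara5 and Gdpd2. Aspn, the matrix proteoglycan asporin, had 2.8 CPM in the G2/M cells against 7.15 CPM in the other tumor cells of Olaparib + LLY-283, and 2.03 against 10.6 CPM in Combo (-1.35 and -2.38). Pgf, placental growth factor, had 7.22 against 16.8 CPM and 3 against 10.9 CPM. Ung, the uracil-DNA glycosylase used at replication forks in S phase, had 4.14 against 8.35 CPM and 4.14 against 10.1 CPM. Hist1h2bc, a histone gene, had 21.9 against 41.5 CPM and 17.5 against 35.2 CPM.

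The level of replication genes in the G2/M cells depended on where the cut lay. Of 43 S-phase genes, 13 were higher and 1 lower in Olaparib + LLY-283, and 16 were higher and 0 lower in Combo, with medians of 0.26 and 0.39. These medians were 0.001 and 0.08 with a cut of 0.1%, and 0.61 and 0.97 with a cut of 0.025%. Per cell, S-phase genes made up a median of 0.229% of the UMIs of a G2/M cell and 0.135% of those of another tumor cell in Olaparib + LLY-283, and 0.246% and 0.114% in Combo. The 15 origin licensing and firing genes had medians of 0.14 and 0.17. The replicative helicase subunits Mcm2 to Mcm7 lay between 0.04 and 0.35, and Cdc6, which loads them, at -0.67 and -0.51. Nucleotide supply stood higher, with Tk1, thymidine kinase, at 1.27 and 1.37 and Rrm1, of ribonucleotide reductase, at 1.01 and 1.22. Pcna, the sliding clamp, had 0.09 and 0.12, and Ccne2, a cyclin of S-phase entry, -0.28 and -0.17. Of 12 histone genes measured, 10 were higher in both libraries (median 1.6 and 1.89), with Hist1h2ap at 549 against 156 CPM and 927 against 248 CPM. Beside these S-phase and histone counts, 4.23% and 5.2% of all genes compared were higher and 1.42% and 4.01% lower. Most histone mRNAs carry no poly(A) tail, so a poly(A) library counts them with low efficiency.

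The G2/M cells were not alike, as grouping the tumor cells by the percentage of the 5 genes showed. From the 0.05 to 0.1% group to the group at 0.2% or more, Ccnb1 went from 46.6 to 200 CPM in Olaparib + LLY-283 and from 41.6 to 191 CPM in Combo. Aurka went from 28.1 to 155 CPM and from 23.1 to 148 CPM. Arl6ip1 was flat below 0.1% (54.2 to 70.5 CPM, and 55.6 to 81.2 CPM) and reached 320 and 377 CPM in the highest group. S-phase genes had the opposite course within the G2/M cells. Mcm6 stood at 69.1, 50.7 and 30.8 CPM in the 3 successive groups of Olaparib + LLY-283 and at 84, 56.4 and 28.9 CPM in those of Combo, Pcna at 159, 127 and 84.1 CPM and at 170, 114 and 67.1 CPM, and Ccne2 at 15.6, 9.52 and 3.8 CPM and at 12.1, 6.08 and 2.65 CPM. The cells just below the cut, at 0.025 to 0.05%, had as much of Mcm6 (67.1 and 95.3 CPM) and Pcna (152 and 176 CPM) as the lowest group of G2/M cells.

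**Figure D3:**
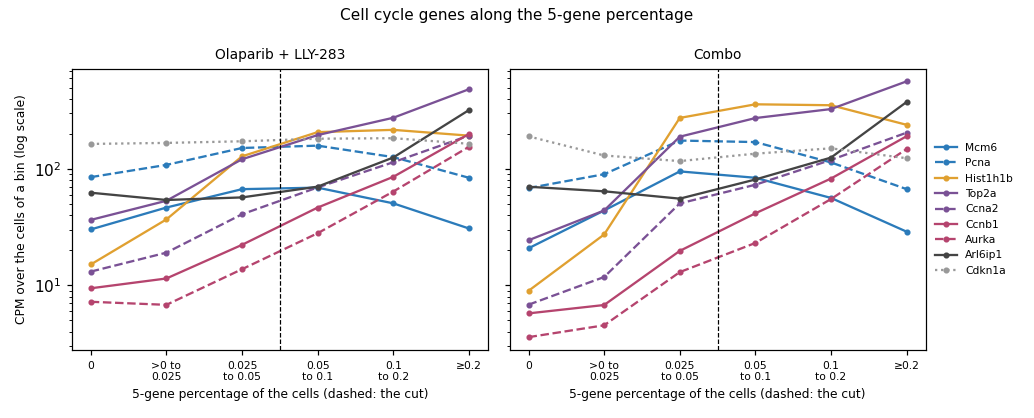
CPM of 9 cell cycle genes (y axis, log scale) over tumor cells grouped by the 5-gene percentage (x axis, 6 groups, dashed line at the 0.05% cut), per library. Mcm6 and Pcna are highest around the cut and lower in the highest group, while Ccnb1 and Aurka continue upward to 200 and 155 CPM in Olaparib + LLY-283 and 191 and 148 CPM in Combo.

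The groups are ordered by the 5 genes themselves, and each group of G2/M cells also carried RNA of S phase, so that the label of G2 or M phase fits them only in part. The 1716 and 401 G2/M cells at 0.05 to 0.1% had 2850 and 3238 CPM of the S-phase list, more than the 1361 and 305 cells at 0.2% or more (2149 and 2215 CPM). The cells with none of the 5 genes had 1387 and 1091 CPM, and those above 0 and under 0.025% had 1838 and 1602 CPM. Histone genes were highest between 0.05 and 0.2% (982 and 1083 CPM in Olaparib + LLY-283, 1767 and 1731 CPM in Combo) and stood at 936 and 1287 CPM at 0.2% or more, against 171 and 158 CPM in cells with none of the 5 genes. A choice by 5 other G2 and M genes (Ccnb1, Tpx2, Hmmr, Nusap1 and Plk1) at the same cut gave 22.2% and 21.3% of the tumor cells. It held 50.1% and 54.6% of the G2/M cells, and 96.1% and 99% of the cells it gave were G2/M cells by the first rule.

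The G2/M cells had more UMIs per cell. Their median was 12136 UMIs (quartiles 7933 and 18079) in Olaparib + LLY-283, against 8660 in the other tumor cells, and 59441.5 (43225 and 76581) against 42947 in Combo. The ratios of the medians were 1.4 and 1.38, and those of the median number of genes were 1.27 and 1.16. When the cells were chosen on counts thinned to an equal 2000 UMIs, the ratios of UMIs were 1.31 and 1.28. Mitochondrial UMIs were a median of 1.05% against 1.04%, and 1.14% against 1.17%. A doublet of 2 cells also has more UMIs. Cells with the highest Scrublet doublet scores, taken at the expected doublet rate, made up 17.3% of the G2/M cells and 10.8% of the other tumor cells in Olaparib + LLY-283, and 6.97% and 2.71% in Combo. Without these cells, the ratios of UMIs were 1.38 and 1.39. The part of doublets that the scores miss was not tested.

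**Figure D4:**
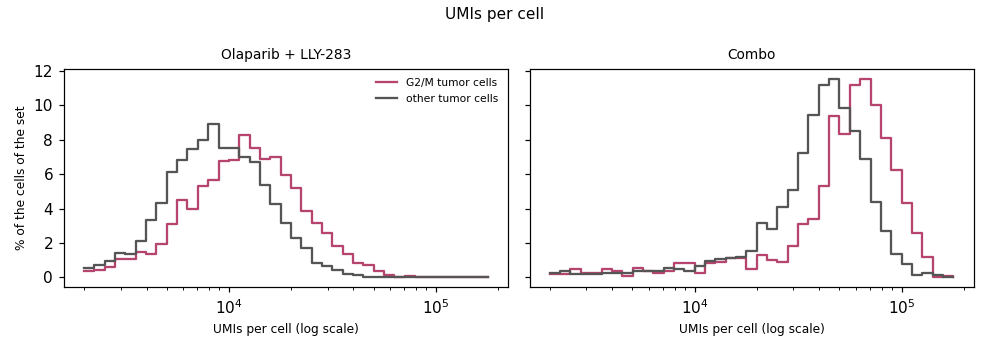
UMIs per cell (x axis, log scale) against the percentage of the cells of a set (y axis), for G2/M tumor cells (red) and other tumor cells (grey) of each library. The red curve lies to the right of the grey one in both libraries, with medians of 12136 against 8660 and 59441.5 against 42947 UMIs.

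Checkpoint and homologous recombination genes were higher in part. In Olaparib + LLY-283, 12 of 22 measured genes were higher and 0 lower, and in Combo 17 of 23 were higher and 0 lower (medians 0.68 and 0.72). Beside the counts of this paragraph, 4.23% and 5.2% of all genes compared were higher and 1.42% and 4.01% lower. Fancd2, of the Fanconi pathway, had 7.2 against 2.33 CPM and 9.22 against 2.24 CPM. Brca1 and Brca2, of homologous recombination, had log2 ratios of 0.82 and 0.95 in Olaparib + LLY-283 and of 0.9 and 1.07 in Combo. Among the checkpoint kinases, Atm had 0.31 and 0.12, Atr 0.27 and 0.24 and Chek1 0.41 and 0.44, while Chek2 was past 1.5-fold at 1.31 and 1.32. Of the kinases that inhibit CDK1, Wee1 had 0.44 and 0.4 and Pkmyt1 was past 1.5-fold at 0.85 and 0.9. Among 17 measured inhibitors of cyclin kinases and p53 targets, Cdkn2d (p19) was the only one called, higher at 63.1 against 16.9 CPM and 71.4 against 18.4 CPM. Cdkn1a (p21), the p53 target that stops the cycle, had 177 against 169 CPM and 137 against 130 CPM.

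The targets of the drugs differed little between the cell sets. Prmt5 had 40.8 CPM in the G2/M cells and 31.8 CPM in the other tumor cells of Olaparib + LLY-283, and 44.6 and 32.3 CPM in Combo. Its partner Wdr77 had log2 ratios of 0.19 and 0.33. Parp1, the main target of Olaparib, had 0.24 and 0.37, and Parp2 0.5 and 0.73, the latter past 1.5-fold. Cd274, which encodes the PD-1 ligand PD-L1, was low, at 3.09 against 3.1 CPM and 3.65 against 4.24 CPM. Genes for the Sm and SR splicing proteins, of which the Sm proteins are methylated by PRMT5, were higher by less than 1.5-fold in 14 of 14 cases in Olaparib + LLY-283 (median 0.3). In Combo 1 of them, Srsf1, passed 1.5-fold (median 0.34).

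Genes of glycolysis and hypoxia had lower levels in the G2/M cells, mostly by less than 1.5-fold. Of 18 glycolysis and hypoxia genes, 18 had ratios below 0 in both libraries (medians -0.27 and -0.38). Of these, 1 and 5 were lower by at least 1.5-fold. Over all genes compared, 1.42% and 4.01% were lower, with medians of 0.02 and 0.03, which holds beside each list of this paragraph. Ndrg1, a hypoxia-induced gene, had 137 against 217 CPM and 107 against 214 CPM, and Gapdh, the most abundant, 3637 against 4056 CPM and 4058 against 4961 CPM. Of 10 genes that earlier results of these data gave for other groups of tumor cells, 2 and 5 were lower, with Mgp, matrix Gla protein, at 185 against 298 CPM and 63.2 against 139 CPM, and Ogn, the matrix proteoglycan osteoglycin, at 324 against 511 CPM and 329 against 600 CPM. Of 13 immediate early genes, 0 and 2 were lower (medians -0.14 and -0.33), with Nr4a1 at -0.44 and -0.69. The 9 MHC class I genes had medians of 0.01 and -0.09, and 0 and 1 of them were lower, with H2-T23 at -0.27 and -0.64. The D-type cyclin Ccnd1, of G1, had 0.09 and 0.2.

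Markers of other cell types were counted in the same cells. Lymphocyte markers summed to 2.36 and 2.51 CPM in the G2/M cells, with Trac the most abundant, and endothelial markers to 10.5 and 7.62 CPM (Egfl7). Neutrophil markers summed to 237 CPM against 254 CPM in the other tumor cells of Olaparib + LLY-283 and to 283 against 323 CPM in Combo, mostly from S100a9. Macrophage markers summed to 150 against 163 CPM and 176 against 183 CPM, mostly from Lyz2. Dendritic cell markers summed to 50.9 against 51.6 CPM and 95.9 against 85.3 CPM (Cd74). Muscle markers summed to 21.5 against 19.8 CPM and 20.2 against 16.1 CPM (Acta1). By at least 1.5-fold, 1 of 7 measured macrophage markers was lower in each library, and 1 of 7 neutrophil markers was lower in Combo. Beside the marker counts of this paragraph, 1.42% and 4.01% of all genes compared were lower and 4.23% and 5.2% higher. Of 5 measured muscle markers, 0 and 1 were higher (medians 0.23 and 0.54). Fibroblast markers summed to 2448 against 2514 CPM and 2313 against 2735 CPM, mostly from Col1a2, whose source in these cells was not tested. Of 6 measured fibroblast markers, 2 and 3 were lower in the G2/M cells by at least 1.5-fold (medians -0.11 and -0.56), as were the matrix genes Aspn, Mgp and Ogn, and the part of fibroblast RNA in the latter was not tested. Dcn, decorin, differed most, at 53.4 against 91 CPM and 75.3 against 213 CPM. No marker of these lists was at 0 in the G2/M cells of either library.

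Finally, the G2/M cells of the 2 libraries were compared with each other. Of 11284 genes, 228 (2.02%) were higher in Combo by at least 1.5-fold and 189 (1.67%) lower. The balance turned when the libraries were scaled by the median ratio of all genes, with 161 higher and 242 lower. The same comparison in the other tumor cells gave 302 of 11446 genes higher (2.64%) and 147 lower (1.28%). Among genes with at least 1000 UMIs, the highest in Combo were Il24, Etv1, AW112010, Serpinb9b, Kitl, Itgb7, Gbp5 and C130026I21Rik. Il24, a cytokine of the IL-10 family, stood at 2.73 CPM in the G2/M cells of Olaparib + LLY-283 and 24.3 CPM in those of Combo, a log2 ratio of 3.15, and had 2.61 in the other tumor cells. Etv1, an ETS transcription factor, had 2.23 and 2.27 in the 2 cell sets, and AW112010, an interferon-induced noncoding RNA, 2.14 and 2.67. Gbp5, an interferon-induced GTPase, had 1.17 in the G2/M cells and 1.89 in the others. Among the lowest were Mgp, Klk10, Qrfp, S100a7a, Hes1, Klf2 and B230362B09Rik. Mgp stood at 185 and 63.2 CPM, and Hes1, a Notch target, at 105 and 47.8 CPM.

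The same lists were set side by side in both sets of tumor cells, which share their libraries. The median of the G2/M list was 0.16 in the G2/M cells and -0.11 in the other tumor cells, and 0 of 110 genes passed 1.5-fold in the G2/M cells, against 2 of 107 that were lower in the others. The ratio was above 0 for 89 of 110 genes in the G2/M cells and for 35 of 107 in the others. The histone list had medians of 0.61 and 0.41, with 6 of 12 genes higher in Combo in the G2/M cells and 2 of 11 in the others. Immediate early genes had -0.46 and -0.28, with 2 of 13 lower in the G2/M cells and 0 of 13 in the others. Interferon-stimulated genes had 0.03 and 0.28, with 3 of 37 higher and 1 lower in the G2/M cells and 7 of 38 higher in the others. The median of all genes was 0.06 and 0.05. Beside each count of this paragraph, 2.02% of all genes were higher and 1.67% lower in Combo in the G2/M cells. In the other tumor cells these shares were 2.64% and 1.28%. The G2/M cells of the libraries also differed in depth (medians of 12136 and 59441.5 UMIs), whose part in these differences was not tested. Markers of other cell types also differed between the libraries. In the G2/M cells 4 of 4 measured dendritic cell markers were higher in Combo (median 0.93, summed 50.9 and 95.9 CPM, most from Cd74), and in the other tumor cells 2 of 4 (median 0.66). Of 6 measured neutrophil markers, 1 was higher and 1 lower in the G2/M cells (median 0.35, summed 237 and 283 CPM). The part of such RNA in the difference between the libraries was not tested.

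**Figure D5:**
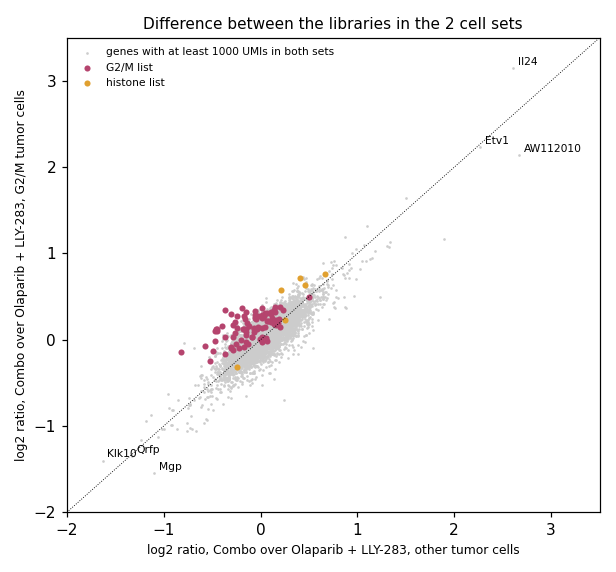
Log2 ratio of CPM, Combo over Olaparib + LLY-283, in the other tumor cells (x axis) and the G2/M tumor cells (y axis) for 8148 genes, with the G2/M and histone lists in color and a dotted line of equality. Il24, Etv1 and AW112010 stand out at the upper right (3.15, 2.23 and 2.14 in the G2/M cells), and Mgp, Klk10 and Qrfp at the lower left.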

How the data were processed

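The 2 deposited matrices were used, 1 per library, each with counts of UMIs per gene and cell. The authors made these counts with Cell Ranger on mm10 and did not normalize them. The file headers give version 6.1.2, while the study's methods state a different version. All 55450 gene identifiers are in GENCODE M21. Cells were chosen by the filters stated above, UMIs were summed over the cells of a set, and CPM were computed from the sums, with exact Poisson intervals. Shares have exact Clopper-Pearson intervals at 95%. With 1 library per group no test was run. The members and gene lists were chosen with earlier results of these data known. Named genes are those of the cell cycle, checkpoint and drug target lists, the 12 highest and 12 lowest genes of the 2 libraries, the 8 highest and 8 lowest between libraries, and the most abundant and most extreme genes of other lists, of which some are not reported here. Thinning drew UMIs at random without replacement. Doublets were scored by Scrublet in scanpy 1.11.5, whose automatic threshold called 0 cells, so the highest scores at a rate of 0.8% per 1000 cells were taken, an option added after seeing the data. The ratio was checked on simulated data, which was not a test of the groups, and the outcome is not reported here. Scripts ran under Python 3.11.15 with matplotlib 3.10.9, pandas 2.3.3, scipy 1.17.1 and numpy 2.4.6. Alternatives changed the cut, the genes of the rule, the filters, the floor, the weights and the scaling.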

Additional observations from a re-analysis of the deposited data

Results flagged for a closer look

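For 6 of the genes named by rank or from the cell cycle lists, and for the interferon list, the log2 ratio of G2/M over other tumor cells had opposite signs in Olaparib + LLY-283 and Combo, with both counting intervals of each gene apart from 0. The difference between the libraries was not tested. Il24 had -0.37 in Olaparib + LLY-283 and 0.16 in Combo, and Itgb7, an integrin subunit, had -0.18 and 0.15. Cdt1, a licensing factor that is destroyed in S phase, had -0.17 and 0.16, and Cdca7, a chromatin protein of S phase, had -0.24 and 0.14. The cyclin kinase inhibitors Cdkn1b (p27) and Cdkn2c (p18) had 0.16 and -0.1, and 0.11 and -0.07. Each of these ratios is under 1.5-fold. The interferon-stimulated genes had a median of 0.1 in Olaparib + LLY-283 and -0.18 in Combo. Of 38 measured genes in Combo, 1 was higher by at least 1.5-fold and 4 were lower. The lower ones were Cxcl11, Ifit3, Irf7 and Ifi44 (named after their values were seen). Over all genes compared in Combo, 5.2% were higher and 4.01% lower. Cxcl11, another T cell chemokine, had 1.31 (counting interval 0.77 to 1.89) in Olaparib + LLY-283, from 102 against 39 UMIs, which is under the floor of 200 UMIs, and -0.93 (-1.34 to -0.54) in Combo. Of the interferon genes past the floor in both libraries, 6 also had opposite signs with both intervals apart from 0 (named after their values were seen). Mx1 had 0.51 and -0.37, Rsad2 0.22 and -0.34, Dhx58 0.2 and -0.29, Ifit1 0.1 and -0.18, Rtp4 0.15 and -0.12 and Psmb8 0.09 and -0.06. Ifit3, an antiviral gene, had 11.9 against 14.8 CPM in Olaparib + LLY-283 and 11.7 against 20.3 CPM in Combo, while Cxcl10, a chemokine for T cells, was higher in the G2/M cells of both libraries, at 31.9 against 17 CPM and 28.6 against 18.4 CPM.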

How the results depend on the processing

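Of 264 values under 20 alternatives, 225 stayed within set limits, 39 moved beyond them and 0 reversed. The limits were the exact 95% interval for shares, 1.5 times for counts and ratios of UMIs, and 0.585 (1.5-fold) for median log2 ratios, so that a value within them may still have moved. The medians of the G2/M list (1.65 to 2.32 in Olaparib + LLY-283, 1.89 to 2.78 in Combo) and the ratios of UMIs per cell (1.16 to 1.42 and 1.28 to 1.39) were among those that stayed. The medians of the S-phase list were within the limit but ranged from 0.001 to 0.61 in Olaparib + LLY-283 and from 0.08 to 0.97 in Combo, lowest with a cut of 0.1% and highest with 0.025%. Scaling by the median ratio gave 161 genes higher and 242 lower in Combo than in Olaparib + LLY-283. Shares are given for Olaparib + LLY-283 and then Combo. They were 26.7% and 24.4% with a cut of 0.1%, 59% and 51% with 0.025%, and 22.2% and 21.3% with 5 other genes. When thinned to 2000 UMIs, where a single UMI of the 5 genes passes the cut, they were 54.6% and 49.4%. They were 39.4% and 35.3% without Cenpf, 34.6% and 31.7% without Ube2c, and 39.4% and 35.4% without Cdc20. Without Cenpa they were 33.3% and 30.4%, and without Prc1 39.1% and 35.1%. In Olaparib + LLY-283 alone the share moved to 44.4% with a minimum of 5000 UMIs, 43.7% and 55.8% when thinned to 5000 and 10000, 53.5% in cells of at least 10000 UMIs, and 40.8% without the highest Scrublet scores. Genes lower in the G2/M cells numbered 66 (Olaparib + LLY-283) and 296 (Combo) when thinned to 2000 UMIs, 296 in Combo with 5 other genes, and 99 and 98 in Olaparib + LLY-283 when thinned to 10000 and in cells of at least 10000 UMIs. With 5 other genes, 112 genes were lower in Combo than in Olaparib + LLY-283. With a floor of 1 UMI, where single UMIs pass the fold, the counts of higher and lower genes were 4449 and 4288 in Olaparib + LLY-283, 4437 and 4900 in Combo, and 4626 and 4400 between the libraries. With a floor of 1000 UMIs, which leaves fewer genes, 53 and 229 genes were lower in the G2/M cells of each library, and 85 were higher and 62 lower in Combo. Thinning to 10000, the minimum of 10000 UMIs, the Scrublet scores and leaving out shared barcodes were chosen after seeing the data. The cause of the other moves was not tested. No paired analysis was possible because each group has 1 library, and for the same reason no replicate could be left out.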
